A study of Mus musculus with 4 samples.

Results

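Il1b+_Cxcl2+ cells are one of 9 clusters that the depositors named among mouse bone marrow-derived macrophages, and they are described here against the other clusters of the same libraries and across the study's conditions. Members are the cells that carry this cluster name in the deposited cell table: 5202 of 27366 cells. They number 1409 of 6565 cells in the LPS-treated library labelled Trpv4-null, 1950 of 8288 in the LPS-treated C57BL/6J wild-type library, 813 of 5485 in the untreated library labelled Trpv4-null and 1030 of 7028 in the untreated wild-type library. These numbers are a description: the genes that name the cluster differ in level between the libraries, so its size is not compared between them. Below, KO stands for the label Trpv4-null and WT for C57BL/6J.

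Bone marrow cells came from mice 8 to 12 weeks old and were grown into macrophages in recombinant M-CSF at 50 ng/mL, in all 4 libraries. LPS (lipopolysaccharide, an outer membrane component of Gram-negative bacteria, sensed by TLR4) was given at 100 ng/mL for 24 hours. Each group is 1 droplet library, so no difference between libraries has a replicate check, and no p-value is given. The series' design text speaks of 3 mice per genotype and 12 samples; how those map to the 4 libraries, and how the null allele was made, is not given in the sources used here. Intervals are exact 95% intervals that cover counting error only.

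Interleukin-1 beta, the product of Il1b, is made as an inactive precursor that inflammasomes such as the Nlrp3 complex activate, and it drives fever and leukocyte recruitment. Cxcl2 is a neutrophil-attracting chemokine. Macrophages transcribe both genes within a short time of TLR4 engagement through NF-kB, and feedback inhibitors such as IkB-alpha, A20 and the mRNA decay factor tristetraprolin then limit the response. Trpv4 encodes a calcium-permeable channel opened by stretch, warmth and lipid messengers.

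The promoters of the 3 genes that were at least 2-fold higher in the cluster in all 4 libraries (Il1b, Cxcl2 and Pf4), and of the neighbouring chemokine gene Cxcl3, are shown for the letters they share and do not share. Each runs 5′ to 3′ from 250 bases before to 50 bases after the RefSeq start site (GRCm38.p6). Il1b is at chr2:129371090-129371389 on the minus strand. The others lie on the plus strand, Cxcl2 at chr5:90903649-90903948, Cxcl3 at chr5:90785851-90786150 and Pf4 at chr5:90772185-90772484. Capitals mark the NF-kB motif (GGG, any 3 bases, then TTCC), searched on both strands counting overlapping matches, and the TATA box TATAAA, searched on the gene's own strand.
Il1b: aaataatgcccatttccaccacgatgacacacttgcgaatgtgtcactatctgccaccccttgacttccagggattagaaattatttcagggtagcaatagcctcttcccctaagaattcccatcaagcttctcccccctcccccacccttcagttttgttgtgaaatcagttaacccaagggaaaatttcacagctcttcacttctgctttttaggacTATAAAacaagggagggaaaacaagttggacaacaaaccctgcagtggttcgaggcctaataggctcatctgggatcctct
Cxcl2: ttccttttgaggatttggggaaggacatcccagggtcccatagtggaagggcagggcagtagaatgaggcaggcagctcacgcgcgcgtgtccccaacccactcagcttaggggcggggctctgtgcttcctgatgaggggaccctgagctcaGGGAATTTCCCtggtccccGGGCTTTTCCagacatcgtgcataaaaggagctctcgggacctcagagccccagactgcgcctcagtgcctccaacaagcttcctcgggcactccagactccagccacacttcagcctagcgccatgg
Cxcl3: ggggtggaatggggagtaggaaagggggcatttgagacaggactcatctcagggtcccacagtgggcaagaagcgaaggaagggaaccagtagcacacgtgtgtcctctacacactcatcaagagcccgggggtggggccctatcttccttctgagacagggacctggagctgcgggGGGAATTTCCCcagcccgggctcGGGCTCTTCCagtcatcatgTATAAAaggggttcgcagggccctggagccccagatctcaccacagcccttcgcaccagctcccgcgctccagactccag
Pf4: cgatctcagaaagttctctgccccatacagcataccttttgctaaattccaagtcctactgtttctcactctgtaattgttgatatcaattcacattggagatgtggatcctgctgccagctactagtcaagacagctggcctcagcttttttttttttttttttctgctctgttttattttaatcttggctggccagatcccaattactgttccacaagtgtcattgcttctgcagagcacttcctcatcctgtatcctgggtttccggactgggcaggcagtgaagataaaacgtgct
In Cxcl2 the NF-kB motif began 97, 96 and 78 bases before the start site, and in Cxcl3 it began 73, 72 and 50 bases before it. The first 2 matches of each gene overlap, since they are the same site read on both strands. Cxcl3 also had a TATA box 30 bases before its start, and Il1b had one 31 bases before its start but no NF-kB match in this window. Pf4 had neither. Of 32544 RefSeq windows of this length, 5.56% held the NF-kB motif and 8.28% the TATA box. The AP-1 motif TGANTCA (7.79% of windows) and the CRE motif TGACGTCA (1.80%) were absent from these 4 windows. Of the 20 leading genes described below, 16 had a RefSeq window; 1 of them (Cxcl2) held the NF-kB motif and 2 (Il1b and Clec4e) held the TATA box. Only exact letter matches in short windows were searched, and other promoters and distal elements were not examined.

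The cluster was named for Il1b and Cxcl2, so their levels in it are no check of the name. All 14 macrophage markers listed reached 20 CPM (UMIs, which count captured mRNA molecules, per 1000000 UMIs of a population) in the cluster in every library, led by the lysozyme gene Lyz2 at 16906 to 22672 CPM. T or NK cell, mast cell, stromal and endothelial markers in the table stayed under 20 CPM, though the table held only 2 of 7, 1 of 6, 2 of 6 and 3 of 4 of them. The monocyte list gave Ms4a4c after LPS (827 and 705 CPM in the cluster, 965 and 865 CPM elsewhere, in KO and WT) and Nr4a1 in untreated WT (33.7 CPM). The eosinophil list gave Ccr3 in KO LPS (24.5 CPM). The osteoclast list gave 1 gene per library, at most Nfatc1 at 44.3 and 47.1 CPM in the untreated cluster (KO, WT) and 45.8 and 44.9 CPM elsewhere. The dendritic list gave only Irf8 (170 to 347 CPM), and 3 to 5 of its 10 genes were at 0 in the cluster. Summed neutrophil markers stood at 120.3, 95.05, 53.2 and 35.9 CPM in the cluster (KO LPS, WT LPS, KO untreated, WT untreated), against 124, 131, 421 and 248 CPM in the other clusters. Ighm, an immunoglobulin gene, stood at 140 and 135 CPM in the untreated cluster and at 136 and 134 CPM in the other untreated cells, and at 0 and 0.0277 CPM in the cluster after LPS. The 4 libraries shared 74 cell barcodes over all pairs, 2 of them within the cluster. No cluster of a cell type that lacks these genes was present to measure free RNA.

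Cells of the cluster were close in depth to the rest of their library. The median UMIs per cell were 16378, 17632.5, 7647 and 5532.5 in the cluster (KO LPS, WT LPS, KO untreated, WT untreated), against 15981, 16302, 7932.5 and 5698.5 in the other clusters. The cluster's summed depth was 24230704, 36087791, 6707452 and 6236437 UMIs. LPS-treated cells were thus deeper than untreated ones, and shares of cells with a UMI are given with each cell thinned to 3000 UMIs as well as unthinned. Median mitochondrial shares were 3.03%, 2.94%, 6.15% and 5.87%, close to those of the other clusters (3.23%, 3.09%, 6.13% and 6.10%). Because the depositors grouped the cells on their expression, the cluster's levels against the other clusters are a description and carry no test.

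Il1b stood apart most without LPS. It had 594 CPM in the cluster and 168 CPM in the other clusters of the KO LPS library (3.53-fold, 3.45 to 3.61), and 1242 and 349 CPM in the WT LPS library (3.56-fold, 3.51 to 3.61). In the untreated KO library it had 42.6 CPM in the cluster and 1.56 CPM elsewhere (27.3-fold, 20.7 to 36.4), and in the untreated WT library 113 and 4.77 CPM (23.7-fold, 20.1 to 28.1). The other clusters' level was thus low without LPS and within 4-fold of the cluster's with it. The cluster held 50.2%, 54.3%, 81.9% and 79.8% of all Il1b UMIs of its library (KO LPS, WT LPS, KO untreated, WT untreated), while it held 22.2%, 25.05%, 14.3% and 14.3% of all UMIs. In UMIs these were 14404 of 28683, 44823 of 82490, 286 of 349 and 705 of 884, so the untreated shares rest on few transcripts.

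Cxcl2 followed the same order. It had 485 CPM in the cluster and 232 CPM elsewhere in the KO LPS library, 353 and 140 CPM in the WT LPS library, 146 and 14.3 CPM in the untreated KO library, and 246 and 35.7 CPM in the untreated WT library. The ratios were 2.09, 2.52, 10.2 and 6.89. The cluster held 37.4%, 45.7%, 62.8% and 53.4% of the Cxcl2 UMIs. Its neighbours Cxcl3 (110 and 40.9 CPM in KO LPS, 87.4 and 43.9 CPM in WT LPS) and Cxcl1, both neutrophil attractants, had too few untreated UMIs to compare: 7 of 7 and 12 of 14 Cxcl3 UMIs of the untreated KO and WT libraries fell in the cluster. After LPS the Cd74+ cluster had more Cxcl3 than this one, at 316 CPM in KO and 508 CPM in WT. Cxcl1 stayed under 20 CPM in every library, at 13.2, 9.03, 2.98 and 3.53 CPM in the cluster and 5.74, 3.07, 0.323 and 0.560 CPM elsewhere.

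**Figure D1:**
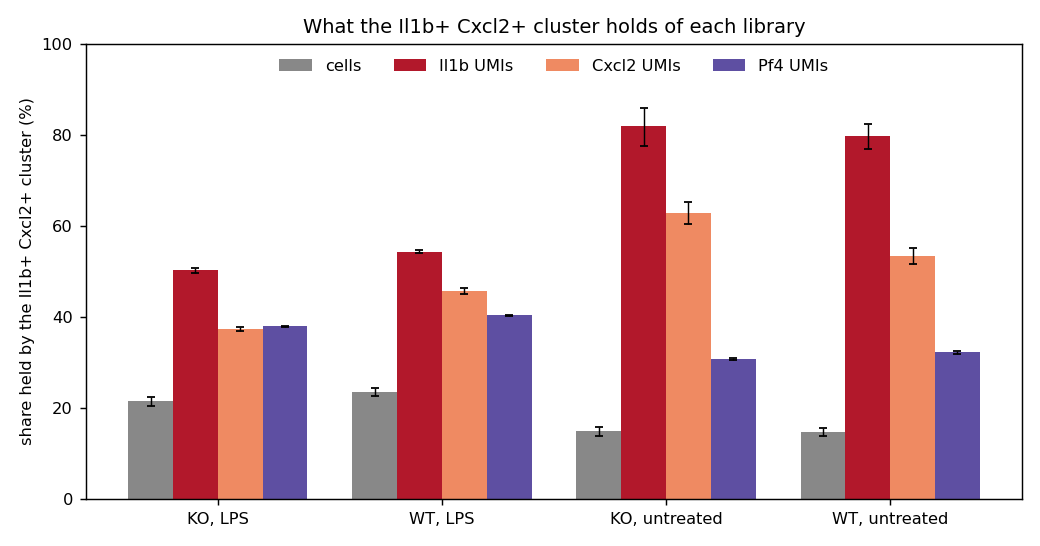
Share (%) of a library's cells and of its Il1b, Cxcl2 and Pf4 UMIs that lie in the Il1b+ Cxcl2+ cluster, for the 4 libraries; bars start at 0 and lines are exact 95% binomial intervals (counting error only). The cluster held 81.9% and 79.8% of the untreated Il1b UMIs and 50.2% and 54.3% of those after LPS.

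Pf4, a CXC chemokine known from platelets that macrophages also transcribe, was the third gene at least 2-fold higher in the cluster in all 4 libraries. It had 7780.4 CPM in the cluster and 3631 CPM elsewhere in the KO LPS library (log2 ratio 1.10), 6200.2 and 3064 CPM in the WT LPS library (1.02), 5449 and 2046 CPM in the untreated KO library (1.41), and 3241 and 1136 CPM in the untreated WT library (1.51). Log2 ratios are of CPM + 1, which understates the differences of low genes. Pf4 was in nearly every cell: 94.99%, 92.01%, 95.6% and 90.2% of thinned cells of the cluster had a Pf4 UMI, and 91.2%, 89.4%, 84.7% and 77.2% of other cells. Median Pf4 UMIs per unthinned cell were 100, 79, 39 and 15 in the cluster, against 31, 24, 10 and 4 elsewhere. Pf4 thus differed mainly in level, and Il1b and Cxcl2 differed in the share of cells with a UMI as well.

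Pf4 was highest in this cluster in each library, but Il1b and Cxcl2 were not always. Among the other 7 clusters that had 100 or more cells per library, the cluster named for Cd74, the invariant chain gene of MHC class II, came nearest after LPS. Its Il1b level was 666 CPM in the KO LPS library, above the cluster's 594 CPM, and 1162 CPM in the WT LPS library, below the cluster's 1242 CPM. Its Cxcl2 level was 440.2 CPM in KO LPS, below the cluster's 485 CPM, and 468 CPM in WT LPS, above the cluster's 353 CPM. Without LPS the cluster was highest for both genes. The next levels of Il1b were those of the Ifit1bl1+_Cmpk2+ cluster, 11.2 CPM in KO and 13.7 CPM in WT. These rest on 19 and 17 UMIs, and 1 KO cell held 17 of the 19. The next levels of Cxcl2 were those of the Cd74+ cluster, 64.1 and 122 CPM. The main Macrophage cluster had 129 and 352 CPM of Il1b after LPS (KO, WT) and 0.652 and 2.49 CPM untreated. Its Pf4 level, at 2295, 2010, 1575 and 913 CPM, was the lowest of these clusters in 3 libraries, and the Cd74+ cluster, at 871 CPM, was lowest in the untreated WT library.

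**Figure D2:**
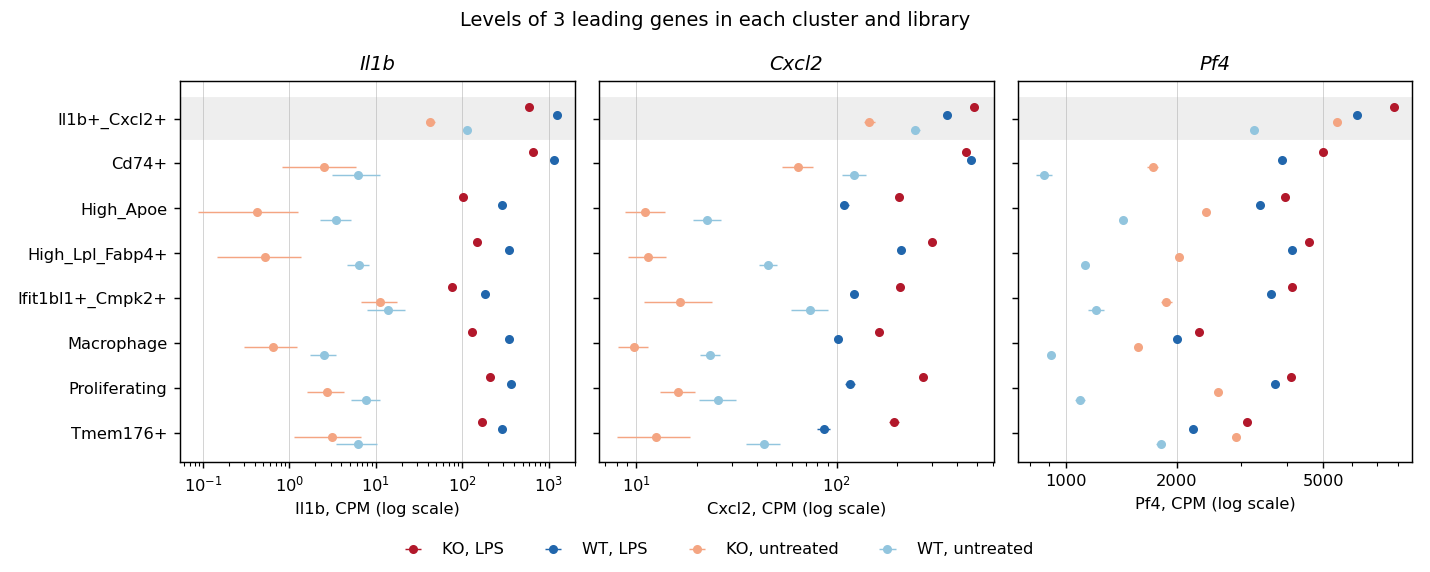
Levels of Il1b, Cxcl2 and Pf4 (CPM, log scale) in the 8 clusters that had 100 or more cells per library; points are libraries, coloured by group, with exact 95% Poisson intervals (counting error only), and the grey band is the Il1b+ Cxcl2+ cluster. Pf4 is highest in the cluster in all 4 libraries, while the Cd74+ cluster passes it for Il1b in KO LPS (666 against 594 CPM) and for Cxcl2 in WT LPS (468 against 353 CPM).

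The name does not mean that each cell held both transcripts. In cells thinned to 3000 UMIs, 42.6% and 66.9% of the cluster had an Il1b UMI after LPS (KO, WT), and 4.86% and 13.1% without it. In the other clusters these shares were 17.8% and 35.8% after LPS, and 0.358% and 1.04% without it. Unthinned, the cluster's shares were 62.8%, 83.9%, 8.36% and 16.8% (KO LPS, WT LPS, KO untreated, WT untreated), against 35.7%, 60.5%, 0.685% and 1.82% elsewhere. Cxcl2 was found in 57.2%, 45.1%, 14.2% and 21.3% of thinned cells of the cluster and in 35.8%, 22.7%, 2.77% and 5.85% of other thinned cells. Unthinned, these were 84.0%, 75.6%, 19.1% and 26.3%, and 67.1%, 49.7%, 5.29% and 8.92%. Between the LPS libraries the 2 genes thus went opposite ways per cell, with Il1b in fewer and Cxcl2 in more KO than WT cells, while without LPS both were in fewer KO cells.

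Both transcripts together were found in 26.4% and 31.6% of thinned cluster cells after LPS (KO, WT) and in 1.75% and 5.02% of untreated ones. Il1b alone was found in 16.2% and 35.3% after LPS, and Cxcl2 alone in 30.7% and 13.5%. Neither was found in 26.6% and 19.5% after LPS, and in 82.7% and 70.6% of untreated cluster cells. Most untreated cells of the cluster therefore showed neither of its name genes at this depth. Transcripts were also unevenly spread: the 10% of cluster cells with the most UMIs of the gene held 56.7% and 41.8% of thinned Il1b UMIs after LPS and 100% and 91.0% without it. For Cxcl2 this 10% held 44.2% and 51.3% after LPS, and 90.2% and 79.6% without it. Without LPS few cells had a UMI of either gene, which by itself raises these shares. In untreated KO 39 thinned cluster cells had an Il1b UMI, fewer than the 81 cells of this 10%, so 100% was fixed in advance. The untreated shares are therefore not comparable with those after LPS.

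**Figure D3:**
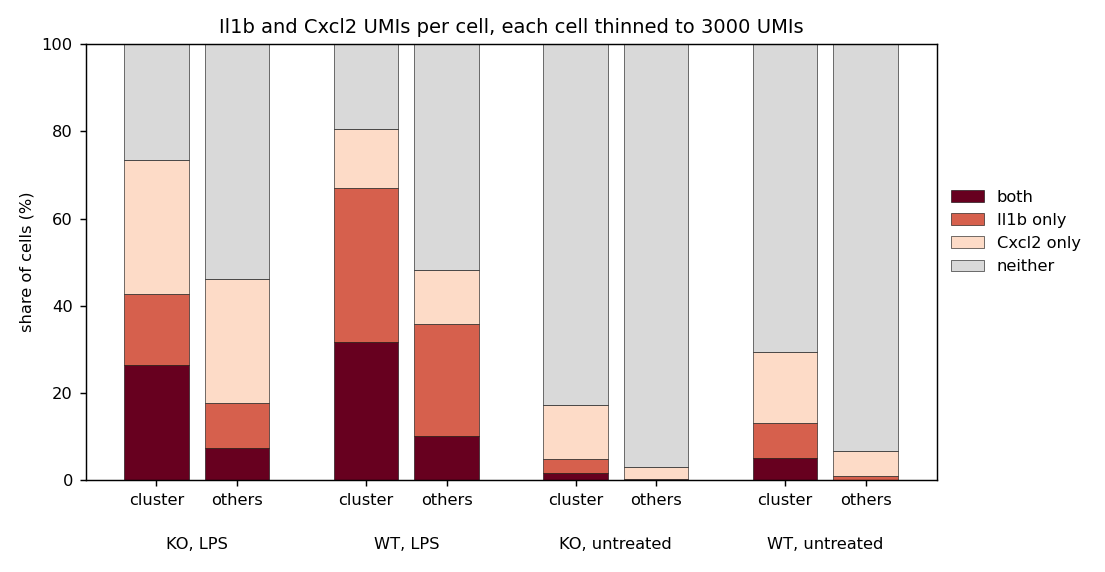
Share of cells (%) with UMIs of both Il1b and Cxcl2, of 1 of them or of neither, each cell thinned to 3000 UMIs, in the cluster and in the other clusters of each library. Cells with neither make up 26.6% and 19.5% of the cluster after LPS (KO, WT) and 82.7% and 70.6% of it untreated.

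What these cells shared beyond the 2 name genes was looked for in those without either. As deposited, 102, 107, 623 and 666 cells of the cluster had no UMI of Il1b or Cxcl2 (7.24%, 5.49%, 76.6% and 64.7% of it, in KO LPS, WT LPS, KO untreated and WT untreated). Their Pf4 level was 7493 CPM in KO LPS and 8150 CPM in WT LPS, against 2379 and 2255 CPM in cells of other clusters that also lacked both. Untreated it was 5822 CPM in KO and 3645 CPM in WT, against 2024 and 1125 CPM. The ratios, 3.15, 3.61, 2.88 and 3.24, were above those of the whole cluster. These ratios are a description and no test, since cells without either gene joined the cluster through the rest of their expression. Clec4n, the fungal lectin receptor dectin-2, was also higher in these cells (2.58-, 2.34-, 1.89- and 1.446-fold). So were its neighbour Clec4e, the receptor Mincle (1.49 to 1.97-fold), and the inflammasome sensor Nlrp3 (1.27 to 1.49-fold). Thbs1, which encodes thrombospondin-1, was 1.83- and 2.01-fold higher without LPS but at 0.560 and 0.884 of the other cells' level with it. Ccl3 likewise was 1.88- and 1.75-fold higher without LPS but at 0.998 and 0.819 of that level with it (KO, WT). Tnf was 1.37- and 1.05-fold after LPS and 2.28- and 1.37-fold without it, and both WT intervals included 1. Cd74 was lower in these cells, at 0.492, 0.274, 0.257 and 0.291 of the level elsewhere.

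Of the 20 leading genes, ranked by their lowest ratio over the 4 libraries, those after Il1b, Cxcl2 and Pf4 began with genes of pattern recognition and the early response. Clec4n had 67.8 CPM in the cluster and 34.3 CPM elsewhere in KO LPS, 116 and 60.2 CPM in WT LPS, 158 and 85.6 CPM in untreated KO and 200.1 and 129 CPM in untreated WT. Thbs1 had log2 ratios of 0.62, 0.82, 0.90 and 1.05, but after LPS it was not highest here: Cd74+ cells had 206 and 211 CPM (KO, WT) against 168 and 192 CPM in the cluster. Clec4e, at 2009 and 1320 CPM in KO LPS and 125 and 52.4 CPM in untreated WT, had ratios of 0.60, 0.78, 0.97 and 1.24. The LPS co-receptor gene Cd14 was higher by 0.57, 0.73, 0.65 and 0.71, the stress-response gene Ier3 by 0.68, 0.57, 0.87 and 0.79, and Nlrp3 by 0.54, 0.58, 0.84 and 0.88. The chemokine gene Ccl3 stood at 508 and 372 CPM in KO LPS and 172 and 83.4 CPM in untreated WT (0.45, 0.47, 1.13 and 1.03). It was not highest in this cluster after LPS, where Ifit1bl1+_Cmpk2+ cells had 934 and 547 CPM (KO, WT) against 508 and 282 CPM in the cluster.

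The remaining 10 leading genes were Fosl2, a Fos-family transcription factor, Ankrd33b, the Kruppel-like factor Klf7, Samsn1, Tnfaip2, the hypoxia factor Hif1a, the nuclear IkB protein Nfkbiz, the RNase regnase-1 (Zc3h12a), Tma16 and the adaptor Gab1. Their log2 ratios ran from 0.31 to 1.30. Nfkbiz reached 1.20 and 1.30 in the untreated KO and WT libraries, against 0.43 and 0.33 after LPS, while Hif1a lay between 0.34 and 0.49 in all 4.

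**Figure D4:**
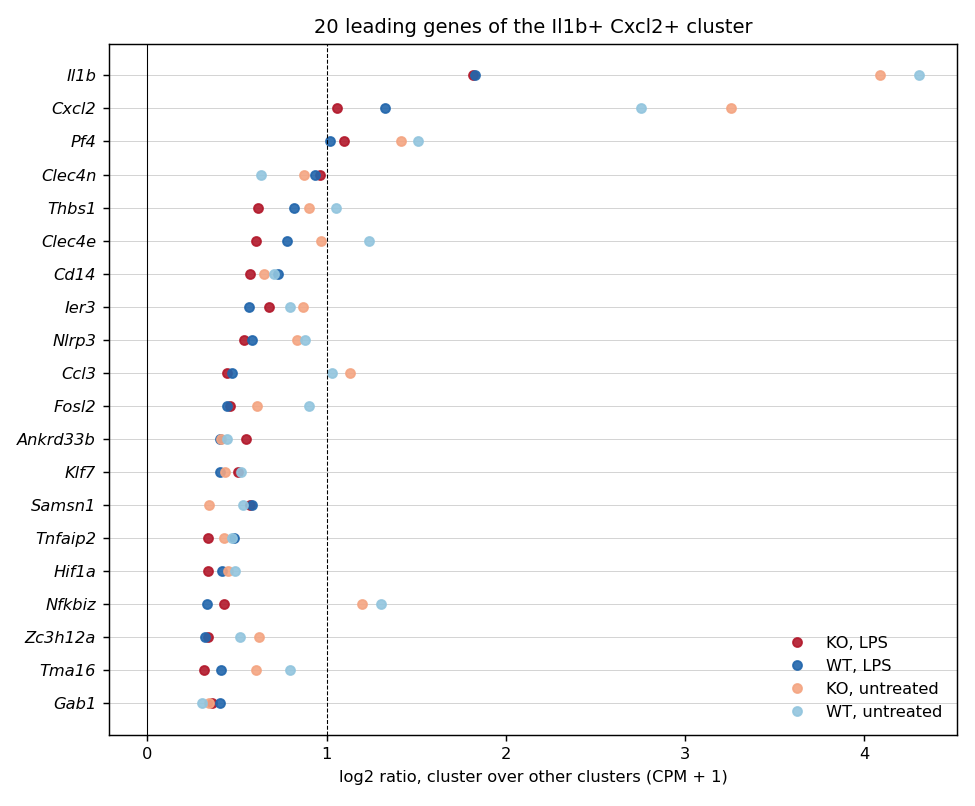
Log2 ratio (CPM + 1) of the cluster over the other clusters for its 20 leading genes, ranked by the lowest value over the 4 libraries; points are libraries, the dashed line marks 2-fold. Il1b, Cxcl2 and Pf4 pass 2-fold in all 4 libraries, and the untreated points lie furthest right for most inflammatory genes, with Nfkbiz at 1.20 and 1.30.

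Across all genes the cluster differed little from its neighbours. Genes were compared where the higher side had 20 CPM and 30 UMIs. In the KO LPS library 6 of 5120 (0.117%) reached 2-fold on the higher side and 28 (0.547%) on the lower, and in WT LPS 7 of 5292 (0.132%) and 25 (0.472%). Untreated, 18 of 6186 (0.291%) were higher and 85 (1.37%) lower in KO, and 21 of 6194 (0.339%) and 42 (0.678%) in WT. In each library 96.7% or more of the genes lay within 0.5 of 0 on the log2 scale. In all 4 libraries 3 of 4724 genes (0.0635%) were higher and 10 (0.212%) lower. Of the other clusters, High_Apoe and Macrophage were most like it, with a mean Pearson r of 0.987 each across genes, which share the library and its depth. After LPS alone High_Lpl_Fabp4+ cells (0.9887 in KO, 0.9898 in WT) were nearer than High_Apoe cells (0.9871 and 0.9872). Proliferating cells were least like the cluster by mean r (0.847).

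Several inflammatory genes separated the cluster more without LPS than with it. Tnf, the gene of tumour necrosis factor, had 13.6 CPM in the cluster and 2.31 CPM elsewhere in untreated KO, and 26.5 and 5.07 CPM in untreated WT (log2 ratio 2.18). After LPS its ratios were 0.58 and 0.78 (KO, WT). Ifit1bl1+_Cmpk2+ cells came near the cluster for Tnf in untreated KO (10.6 CPM, from 18 UMIs), and less so in untreated WT (10.5 CPM). With LPS they had 126 CPM in KO and 94.7 CPM in WT, against 133 and 103 CPM in the cluster. Ccl4, a chemokine of T cells and monocytes, had 106 and 27.4 CPM in untreated KO (1.91) and 165 and 37.0 CPM in untreated WT (2.13), but 1018 and 915 CPM in KO LPS (0.15) and 408 and 482 CPM in WT LPS (-0.24). The monocyte attractant Ccl2 had ratios of 1.63 and 1.78 untreated (KO, WT) and 0.16 and 0.01 after LPS. Not every chemokine gene was higher in the untreated cluster. Among 4 CXC chemokines compared, 3 lay above 0 and 1 was past 2-fold lower, at -1.66 in KO and -2.23 in WT. Among 6 CC chemokines compared in untreated WT, 4 lay above 0 and 1 was past 2-fold lower (-3.59). The growth-response factor Egr1 was higher by 1.42 and 1.14 untreated, and the orphan nuclear receptor Nr4a1, at 33.7 and 8.21 CPM in untreated WT, by 1.91. The maturation marker Cd83 was higher by 1.24 and 1.15 untreated, and was under 20 CPM after LPS, as were Egr1 and Nr4a1.

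Other genes could be compared after LPS alone. Il1a, the second interleukin-1 ligand, had 62.9 CPM in the cluster and 26.8 CPM elsewhere in KO LPS (1.20) and 102 and 38.8 CPM in WT LPS (1.37). Without LPS it had 1 and 2 UMIs in the cluster (KO, WT). The Cd74+ cluster was above both LPS values, at 92.6 CPM in KO and 128 CPM in WT. Serpinb2, an inhibitor of plasminogen activation, had 120.2 and 40.2 CPM in KO LPS (1.56) and 28.2 and 13.2 CPM in WT LPS (1.04). It was higher still in Cd74+ cells (199 CPM in KO, 83.4 CPM in WT) and, in WT, in High_Lpl_Fabp4+ cells (33.9 CPM). Il1rn, the antagonist of the interleukin-1 receptor, was not higher in the cluster, at 281 and 320 CPM in KO LPS and 212 and 237 CPM in WT LPS. The inflammasome protease gene Casp1 had ratios of -0.13, -0.11, 0.04 and -0.08. Of 12 interleukin-1 and inflammasome genes compared after LPS, 3 lay above 0 (Il1b, Il1a and Nlrp3) and 9 below 0 in each genotype. The medians were -0.15 in KO and -0.11 in WT, and 0.18 and 0.09 against the Macrophage cluster alone.

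The NF-kB subunits were higher in the cluster by small amounts. Of the 5 subunits, 4 lay above 0 in KO LPS, where Rel was at -0.12, and 5 in each of the other libraries (WT LPS, KO untreated, WT untreated), with medians of 0.10, 0.21, 0.33 and 0.29, beside medians of -0.01, 0.01, 0.01 and 0.02 for all genes. Of 13 inhibitors and feedback genes, 9, 10, 12 and 12 lay above 0, with medians of 0.18, 0.14, 0.63 and 0.44. At least 2-fold higher were 5 of 13 in untreated KO and 2 in untreated WT, against 0.291% and 0.339% of all genes. Among them Nfkbia, which encodes IkB-alpha, had log2 ratios of 1.05 and 0.88 untreated and 0.11 and 0.10 after LPS. Tnfaip3, the gene of the deubiquitinase A20, had 1.19 and 1.38 untreated and 0.22 and 0.42 after LPS. Nfkbie had 1.03 and 0.97 untreated, and Tnip3 1.13 and 0.99.

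Immediate-early factors lay above 0 for 13 of 14 genes in untreated KO and 15 of 15 in untreated WT (medians 0.41 and 0.49), against 10 of 13 in KO LPS and 8 of 12 in WT LPS (0.07 and 0.09). Glycolysis and hypoxia genes showed the reverse: 18 of 19 and 20 of 20 lay above 0 after LPS (0.11 and 0.29), among them the lactate exporter Slc16a3 (0.44 and 0.52) and the glucose transporter Slc2a1 (0.35 and 0.50), and 8 of 18 and 10 of 17 untreated (-0.02 and 0.06). The glycolysis median of KO LPS turned to -0.02 against the Macrophage cluster alone. Nrf2 antioxidant genes were above 0 for 8 of 8 genes in both LPS libraries, 7 of 9 in untreated KO and 9 of 9 in untreated WT, with the haem oxygenase gene Hmox1 at 0.31, 0.18, 0.15 and 0.18.

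Other gene groups were lower in the cluster, among them genes that name other clusters. MHC class II genes lay below 0 for 6 of 6, 5 of 5, 6 of 6 and 6 of 6 genes (medians -1.01, -0.63, -2.68 and -2.27). The invariant chain gene Cd74 stood at 82.0 CPM in the cluster and 193 CPM elsewhere in KO LPS, 36.8 and 116 CPM in WT LPS, 66.8 and 274 CPM in untreated KO, and 75.2 and 261 CPM in untreated WT. The class II gene H2-Aa had log2 ratios of -2.48, -2.77, -3.96 and -3.64, the topoisomerase gene Top2a -3.24, -3.33, -4.17 and -3.59, the survivin gene Birc5 -3.70, -3.31, -3.15 and -3.26, and the fatty acid binding gene Fabp4 -1.67, -1.47, -1.73 and -1.19. Set against the Macrophage cluster alone, Fabp4 and H2-Aa were above 0 in all 4 libraries, Cd74 in 3 and Top2a in 2. In that comparison 2-fold was reached on the higher side by 20 of 5143 (0.389%), 16 of 5298 (0.302%), 19 of 6133 (0.31%) and 29 of 6193 (0.468%) genes. On the lower side it was reached by 2, 2, 7 and 3 genes (0.0389%, 0.0378%, 0.114% and 0.0484%).

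Interferon-stimulated genes were slightly lower in the cluster. Of those compared, 36 of 39, 37 of 39, 26 of 27 and 26 of 26 lay below 0 (medians -0.14, -0.16, -0.34 and -0.37). Isg15, an interferon-induced ubiquitin-like modifier, had 2428 and 2696 CPM in KO LPS, 1656 and 1921 CPM in WT LPS, 23.7 and 53.5 CPM in untreated KO, and 14.8 and 35.0 CPM in untreated WT. Against the Macrophage cluster alone the untreated KO median was 0.01 and Isg15 was at 0.50 there and at 0.03 in untreated WT.

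The genotype comparison carries a limit that comes before its values: Trpv4 itself was not lower in the cluster under the label Trpv4-null. It had 9.78 CPM in KO LPS and 1.496 CPM in WT LPS, a ratio of 6.54 (4.85 to 8.96), and 6.86 CPM in untreated KO and 4.65 CPM in untreated WT (1.47, 0.907 to 2.43). After LPS the ratio was above 1 in all 8 clusters, from 3.14 to 8.19. The sources used here do not say which part of the gene was deleted or where its reads lie, and reads from outside that part would check nothing. Every direction between genotypes below therefore rests on the label.

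After LPS the libraries differed in few genes of the cluster: 10 of 5228 (0.191%) reached 2-fold on the higher side and 4 (0.0765%) on the lower side in KO against WT, and 97.97% lay within 0.5 log2. In the other clusters together these were 6 of 5226 (0.115%) and 3 (0.0574%). Of the 10, 1 was an unnamed gene model. The others were led by Serpinb2 (120.2 CPM in KO, 28.2 CPM in WT; log2 ratio 2.06), the collagenase gene Mmp13 (42.8 and 10.5 CPM, 1.93), the cyclooxygenase gene Ptgs2 (31.8 and 11.9 CPM, 1.35) and Ccl4 (1018 and 408 CPM, 1.32). The cyclin gene Ccnd1 (1.16), Cd74 (1.13), the transmembrane glycoprotein gene Gpnmb (1.08), the surface protein gene Ly6a (1.04) and the lipid carrier gene Apoe (1.03) followed. Serpinb2 was not particular to the cluster: its KO over WT ratio was 4.27 here and above 1 in each other cluster compared. It ran from 1.31 in Tmem176+ cells, where the interval included 1, to 5.73 in High_Apoe cells. The 4 lower were the scavenger receptor Marco (79.7 CPM in KO, 196 CPM in WT; -1.29), the sialic acid receptor Cd33 (29.2 and 66.1 CPM, -1.15), the hypoxia-regulated gene Fam162a (34.8 and 76.7 CPM, -1.12) and Il1b itself (-1.06). With median-of-ratios and TMM scaling Il1b was at -0.97 and -0.98, inside 2-fold, and 3 genes were lower.

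Il1b had 594 CPM in KO LPS and 1242 CPM in WT LPS, a ratio of 0.479 (0.470 to 0.488) within the cluster. It was also lower in KO in each of the 7 other clusters compared, with ratios from 0.358 in High_Apoe to 0.580 in Tmem176+ cells, and at 168 and 349 CPM in the other clusters together. Since the cells were grouped partly on Il1b, its level in the cluster alone depends on where the cluster was drawn, and the other clusters' values stand beside it for that reason. Il1a was lower too (62.9 and 102 CPM, -0.69), whereas the receptor antagonist Il1rn was higher (281 and 212 CPM, 0.41). Nlrp3 was nearly level (130 and 135 CPM, -0.06, and 0.03 with median-of-ratios scaling), and the ATP receptor P2rx7 was lower (18.1 and 32.8 CPM, -0.83).

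Within the cluster the chemokines went the other way from Il1b. Cxcl2 had 485 CPM in KO LPS and 353 CPM in WT LPS (log2 ratio 0.46), and Cxcl3 had 110 and 87.4 CPM (0.33). Cxcl3 was also higher in KO in Proliferating cells (41.4 and 36.8 CPM). It was not higher in KO in the other clusters compared, such as Cd74+ cells (316 and 508 CPM). Across the clusters the Cxcl2 ratio was above 1 in 7 of 8, from 1.37 in this cluster to 2.30 in Proliferating cells, and 0.940 in Cd74+ cells. Of 9 CC chemokines compared, 9 were above 0 in the cluster (median 0.81) and 9 in the other clusters (0.81). Ccl2 had 1446 CPM in KO and 733 CPM in WT (0.98), Ccl7 1398 and 702 CPM (0.99) and Ccl3 508 and 282 CPM (0.85). By library total Ccl4 alone reached 2-fold; with median-of-ratios scaling Ccl2 (1.07) and Ccl7 (1.08) did too, and with TMM scaling likewise (1.06 and 1.07).

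Glycolysis and hypoxia genes lay on the lower side in KO. All 20 compared were below 0 in the cluster (median -0.44), beside a median of -0.06 for all genes, and all 19 compared in the other clusters were too (-0.30). The lactate dehydrogenase gene Ldha had 373 CPM in KO and 572 CPM in WT (-0.62), Hif1a 146 and 218 CPM (-0.58), Slc16a3 50.9 and 76.7 CPM (-0.58) and the glycolysis regulator Pfkfb3 60.8 and 91.2 CPM (-0.58). Bnip3, a hypoxia-induced mitophagy receptor, was at -0.88 and the glyceraldehyde-3-phosphate dehydrogenase gene Gapdh at -0.12. None was past 2-fold. Interferon-stimulated genes leaned the other way, with 35 of 39 above 0 (median 0.21), Rsad2 at 0.78 and Oasl2, against the rest, at -0.48. NF-kB subunits lay near 0, with 2 above and 3 below 0 (median -0.00, and 0.09 with median-of-ratios scaling). Nfkbia was at 0.12 and Tnfaip3 at -0.01.

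Without LPS, 2-fold was reached on the higher side in KO by 13 of 6181 genes (0.21%) and on the lower side by 16 (0.259%), and in the other clusters by 9 (0.146%) and 10 (0.162%) of 6175. The collagenase gene Mmp8 had 25.5 CPM in KO and 4.17 CPM in WT (2.36), the aryl hydrocarbon receptor repressor gene Ahrr 34.0 and 9.14 CPM (1.79), the aryl hydrocarbon receptor target Tiparp 112 and 36.9 CPM (1.58), Mmp13 23.9 and 8.02 CPM (1.46) and the orphan receptor Gpr141 49.0 and 18.9 CPM (1.33). Mmp8 is also a neutrophil gene and made up 25.5 of the 53.2 CPM of neutrophil markers in this KO cluster; their part in the result was not tested. Kansl2 (1.16), the interferon regulatory factor Irf7 (1.13), the guanylate-binding protein gene Gbp3 (1.10), the fumarate hydratase gene Fh1 (1.07) and the nucleic acid sensor Zbp1 (1.04) followed among the 10 highest named genes. Interferon-stimulated genes were above 0 for 22 of 22 genes in the cluster (median 0.31) and 27 of 27 elsewhere (0.37).

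The lower side without LPS included immediate-early genes, signal-ending phosphatases and, of the cluster's name genes, Il1b. Dusp1, a MAP kinase phosphatase, had 166 CPM in KO and 459 CPM in WT (-1.46), Nr4a1 11.6 and 33.7 CPM (-1.46), the transcription factor Ets2 16.4 and 44.7 CPM (-1.39), Il1b 42.6 and 113 CPM (-1.39; ratio 0.377, 0.328 to 0.433) and the G-protein regulator Rgs1 57.2 and 151 CPM (-1.38). Fosb (89.3 and 218 CPM, -1.28), Id3 (93.03 and 220.5 CPM, -1.24) and Fos (266 and 619.9 CPM, -1.22) were also past 2-fold, as were Myo1e (-1.28) and Erh (-1.22). Of 15 immediate-early factors 14 were below 0 (median -0.60), and of 6 MAP kinase phosphatases all 6 (-0.63), beside -0.03 for all genes. In the other clusters these were 13 of 14 (-0.46) and 4 of 4 (-0.43). The Il1b ratio lay between 0.0837 and 0.816 in the other 7 clusters, from 3 to 19 KO UMIs in each. Its interval included 1 in Cd74+, Ifit1bl1+_Cmpk2+ and Tmem176+ cells. The Dusp1 ratio lay between 0.285 and 0.412, and that of Fos between 0.338 and 0.503, in all 8 clusters.

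Other inflammatory genes were lower in untreated KO by less than 2-fold. Cxcl2 had 146 CPM in KO and 246 CPM in WT (-0.76), Tnf 13.6 and 26.5 CPM (-0.91), Nfkbiz 42.5 and 79.5 CPM (-0.89), Tnfaip3 21.6 and 37.8 CPM (-0.78), Zfp36, which encodes tristetraprolin, 387 and 601 CPM (-0.63), Egr1 55.2 and 90.3 CPM (-0.70) and Nlrp3 75.1 and 106 CPM (-0.49). The Cxcl2 ratio was below 1 in all 8 clusters, from 0.225 to 0.628. Nrf2 antioxidant genes were below 0 for 8 of 9 genes (median -0.50), with the thioredoxin reductase gene Txnrd1 at 65.2 and 117 CPM (-0.84). Pf4 was higher, at 5449 CPM in KO and 3241 CPM in WT (0.75), and all 8 clusters had a ratio over 1, both without LPS (1.55 to 2.37) and with it (1.10 to 1.40).

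**Figure D5:**
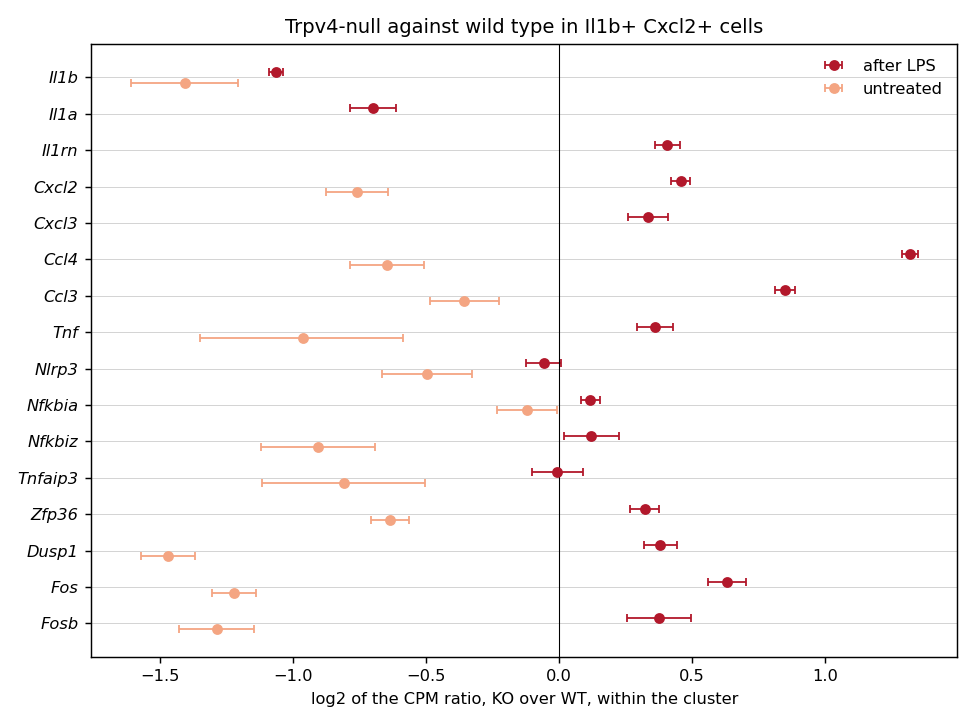
Log2 of the CPM ratio of KO over WT within the cluster for its inflammatory and immediate-early genes, after LPS (dark) and untreated (light), with exact 95% intervals (counting error only); genes under 20 CPM in both libraries have no point. Il1b lies below 0 in both conditions (ratios 0.479 and 0.377), while Cxcl2, Tnf, Zfp36, Dusp1 and Fos lie above 0 after LPS and below 0 untreated.

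LPS went with large differences within the cluster. In KO, 2-fold over untreated was reached on the higher side by 470 of 6311 genes (7.45%) and on the lower side by 1454 (23%), and in WT by 418 of 6338 (6.6%) and 1188 (18.7%). In the other clusters the shares were 7.34% and 20.8% in KO and 6.81% and 17.5% in WT. These splits depend on the scaling, since the median gene lay at -0.43 and -0.40: with median-of-ratios size factors, which raise log2 ratios by 0.60 in KO and 0.52 in WT, 1085 were higher and 487 lower in KO, and 877 and 438 in WT. Saa3, an acute-phase serum amyloid, had 43996 CPM after LPS and 14.9 CPM untreated in KO, and 50257 and 19.7 CPM in WT. The chemokine Ccl5 had 11559 and 4.77 CPM in KO and 10181 and 0.962 CPM in WT, and the itaconate-making enzyme gene Acod1 1846 and 4.92 CPM in KO and 1414 and 5.61 CPM in WT. The NAD-consuming enzyme gene Cd38 had no UMI in either untreated cluster. Set against a floor of 3 UMIs per library, it was 390.5-fold higher in KO and 323-fold higher in WT. Serpinb2 had no UMI in untreated KO and was 269-fold higher after LPS against the same floor.

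The chemokine genes Ccl12 (log2 ratios 7.81 in KO and 7.03 in WT), Ccl7 (7.59 and 5.50) and Cxcl10 (7.37 and 7.13), the prostaglandin E synthase gene Ptges (7.28 and 6.72), the interferon-inducible gene Ifi205 (7.24 and 7.44) and the formyl peptide receptor gene Fpr1 (6.69 and 7.11) were among the highest in 1 genotype or both. Lowest were Ighm, Cd28 (-6.71 and -6.26), the iron exporter gene Slc40a1 (3.095 and 369 CPM, -6.50 in KO; 4.54 and 456 CPM, -6.37 in WT), the centromere gene Cenpa (-6.09 and -5.82) and Cytip (-5.78 and -5.53). Cd83, which marked the untreated cluster, had 2.64 and 55.0 CPM in KO and 1.58 and 117 CPM in WT. Of 39 interferon-stimulated genes compared, 39 passed 2-fold on the higher side in both genotypes (medians 3.43 and 3.72), and 8 of 9 CC chemokines in KO and 7 of 9 in WT.

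For the cluster's own markers the LPS ratio was smaller than in the other clusters. Il1b was 13.9-fold higher in KO (12.4 to 15.7) and 10.99-fold higher in WT (10.2 to 11.9) after LPS, log2 ratios of 3.77 and 3.45, against 6.05 and 5.92 in the other clusters. Cxcl2 was higher by 1.73 in KO and 0.52 in WT, against 3.93 and 1.94 in the other clusters. Tnf was higher by 3.20 and 1.93, Il1rn by 4.85 and 4.33, Nlrp3 by 0.78 and 0.34, and Pf4 by 0.51 and 0.94. Because the cells were grouped in part by these genes, the gap between cluster and other clusters is a description only.

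Feedback genes split. Nfkbia was higher after LPS by 1.26 in KO and 1.02 in WT, Tnfaip3 by 1.44 and 0.67 and the adaptor gene Traf1 by 2.72 and 2.34. Zfp36 had log2 ratios of -0.92 and -1.87. Egr1 and Fos, which are immediate-early factors and not feedback genes, were lower after LPS too, Egr1 at -3.65 and -5.27. Fos had 134 CPM after LPS and 266 CPM untreated in KO (-0.98), and 86.8 and 619.9 CPM in WT (-2.82). Dusp1 had 161 and 166 CPM in KO (-0.04, and 0.57 with median-of-ratios scaling) and 124 and 459 CPM in WT (-1.88). Of the NF-kB subunits, Rel was at -1.21 and -1.27 and Nfkb2 at 0.69 and 0.61; the subunits' median, -0.14 in KO and -0.32 in WT, turned to 0.47 and 0.22 with median-of-ratios scaling. Immediate-early factors were below 0 for 13 of 14 genes in KO (median -0.93) and 15 of 15 in WT (-1.54).

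The LPS log2 ratio differed between KO and WT by at least 1 for a few of 6506 genes, with the larger ratio in KO for 41 (0.63%) and in WT for 19 (0.292%); the difference was not tested. Ccnd1 (a difference of 2.91), Serpinb2 (2.27, from 0 and 1 untreated UMIs in KO and WT), Ccl7 (2.09), Rgs1 (2.03), Ccl4 (1.96) and Fos (1.84) were highest, and Ccl5 (-1.37), Kansl2 (-1.28), Oasl1 (-1.24), Bnip3 (-1.16), Fh1 (-1.15) and Arrdc3 (-1.15) lowest. Ccl5 was under 20 CPM untreated in both genotypes, and after LPS its level was higher in KO than in WT. Dusp1 (1.84), Egr1 (1.62), Tnf (1.27), Cxcl2 (1.21) and Nfkbiz (1.01) were also past 1, while Il1b differed by 0.32. For Dusp1 and Fos the difference lay more in the untreated libraries, where WT was higher, than after LPS. Rgs1, Fh1 and Kansl2 likewise differed past 2-fold without LPS and not after it.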

How the data were processed

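Single-cell RNA of 4 macrophage libraries was captured on the 10x Chromium platform. The deposited count tables hold whole-number UMI counts per gene and cell, not normalised, for 14432 genes and 27366 cells. The deposited cell table gives the authors' cluster names, UMI totals per cell and, per the file headers, the mitochondrial fraction of each cell's UMIs. The deposited ratio of log10 genes to log10 UMIs per cell entered no result. Cells had 1003 to 39987 UMIs and at most 9.9979% mitochondrial UMIs, which are the limits seen in the deposited cells and not a stated filter. The submitters' processing notes name Cell Ranger 3.1.0, Seurat 4, R 4.2 and the build mm10, with no role or order. No doublet treatment is stated in the sources used here, and no doublet caller was run.

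UMIs were summed per library and population and divided by that population's total (CPM). Ratios were taken as log2(CPM + 1) differences, which understate changes of low genes, and were compared where the higher side had at least 20 CPM and 30 UMIs. With 1 library per group there is no test, and 2-fold is a rule of size. Exact Poisson, conditional and Clopper-Pearson 95% intervals cover counting error only. Genes at 0 were set against a floor of 3 UMIs. Shares of cells with a UMI were also taken after thinning each cell to 3000 UMIs, leaving out 13, 11, 11 and 73 cluster cells below that (KO LPS, WT LPS, KO untreated, WT untreated).

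Genes were named by rule: the 20 highest and 10 lowest of the cluster over its 4 libraries, 10 on each side of a comparison between libraries, up to 4 members of each of 23 gene lists, and fixed inflammatory genes; unnamed gene models were left out, and some genes met by the rule are given only in counts. Gapdh and Oasl2 fall outside it and were chosen from their lists after their values were seen. The members and lists were chosen with earlier results of these data known. The count code was tested on simulated data: 100% of genes changed 4-fold were found and 0 unchanged genes were called in the 3 comparisons simulated (KO over WT with and without LPS, and cluster over the other clusters in untreated WT). The simulated counts were Poisson draws from summed levels, with no spread between cells or libraries. Changes were set only in genes of at least 20 CPM. The simulation therefore checks the code and cannot show how often unchanged genes pass 2-fold between real libraries. Alternatives were a pseudocount of 5 CPM, no CPM floor, median-of-ratios and edgeR TMM factors, the mean of per-cell CPM, cells of at least 3000 UMIs and the Macrophage cluster alone as the rest. TMM factors came from edgeR 4.0.16 in R 4.3.3. All else was computed in Python 3.11.15 (scipy 1.17.1 for intervals, pandas 2.3.3, numpy 2.4.6; figures with matplotlib 3.10.9).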

Additional observations from a re-analysis of the deposited data

Results flagged for a closer look

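Within the cluster, several genes lay above WT in the KO library after LPS and below it without LPS. The KO over WT ratio of Cxcl2 was 1.37 after LPS and 0.591 untreated, that of Tnf 1.29 and 0.513, and that of Fos 1.55 and 0.429. Dusp1 had ratios of 1.30 after LPS and 0.362 untreated, Zfp36 1.25 and 0.644, Nfkbiz 1.09 and 0.534, and Nfkbia, whose ratios lay near 1, 1.09 and 0.920. Nfkbiz also took opposite directions with LPS itself, at 1.28 of its untreated level in KO and 0.627 in WT. Each value compares 1 library with 1 library, and the difference between the conditions was not tested. Dusp1 and Fos had the same opposite directions in all 8 clusters compared, so these were not particular to the Il1b+_Cxcl2+ cells, and Cxcl2 had them in 7 of 8. The untreated libraries had lower median UMIs per cell (7647 in KO and 5532.5 in WT in the cluster) than the LPS libraries (16378 and 17632.5).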

How the results depend on the processing

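No paired analysis was possible because the labels carry no replicate numbers and each group is 1 library, so no library could be left out either. Of the counts and shares recomputed, 87 stayed within 1.5 times or within their interval and 41 moved; of the gene list medians 984 stayed, 203 moved and 2 that were at least 2-fold changed sign; of the named genes' ratios 2451 stayed, 900 moved and 16 that were at least 2-fold changed sign. All 18 of these came with the Macrophage cluster alone as the rest; medians and ratios nearer 0 also crossed it, there, with the other scalings, with the per-cell mean and with the depth filter, and were counted as moved or, for single genes within their interval, as stayed. Against Macrophage the MHC class II median of WT LPS was 0.26 and that of matrix proteases in KO LPS 1.02. Among the 18, in KO LPS the MHC class II median was 0.55, Cd74 0.83, Fabp4 0.13, H2-Aa 0.62 and Top2a 0.088. In WT LPS Birc5 was 0.029, Cd74 0.44, Fabp4 0.37 and H2-Aa 0.26. In untreated KO Fabp4 was 0.33, H2-Aa 0.41, Isg15 0.50 and Top2a 0.11. In untreated WT the MHC class II median was 0.31, Cd74 0.60, Fabp4 1.24, H2-Aa 0.58 and Isg15 0.025. That setting takes the clusters named for such genes out of the rest. With it, 2-fold was passed upward by 20 genes and downward by 2 in KO LPS, by 16 and 2 in WT LPS, and downward by 7 and 3 in untreated KO and WT. With median-of-ratios factors the LPS over untreated median of TLR4 genes was 0.20 in KO and 0.091 in WT, against -0.41 and -0.43.

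Without the CPM floor more genes enter: against the other clusters 217 were lower in KO LPS, 194 in WT LPS, 28 higher and 261 lower in untreated KO, and 36 higher and 187 lower in untreated WT. KO over WT then gave 27 higher and 14 lower after LPS, and 40 and 31 untreated. LPS over untreated gave 708 higher and 2377 lower in KO and 640 and 1838 in WT, and the difference of LPS ratios 88 higher and 70 lower. A pseudocount of 5 CPM left 8 genes higher in untreated KO over WT, and 5 lower in the difference of LPS ratios. Median-of-ratios factors gave 1085 higher and 487 lower with LPS in KO, 877 and 438 in WT, and 12 lower in the difference. TMM factors gave 1038 and 507 in KO and 866 and 448 in WT. For these scalings the share of higher genes was 69.0% and 67.2% in KO, against 24.4% by library total, and 66.7% and 65.9% in WT, against 26.0%; the cause was not tested.

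Thinning lowered the share of cluster cells with an Il1b UMI to 42.6%, 66.9%, 4.86% and 13.1% (KO LPS, WT LPS, KO untreated, WT untreated), and with a Cxcl2 UMI to 57.2%, 45.1%, 14.2% and 21.3%. Depth limits the untreated libraries most, where Il1b rests on 286 UMIs in KO and 705 in WT within the cluster and a cell without a UMI cannot be called free of the transcript.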
